A study of Mus musculus with 8 samples.

Results

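*Nanog*, *Pou5f1*, *Sox2* and *Cdx2* were examined for H3K9me3 in ES cells before and after loss of the histone methyltransferase Setdb1. These are 4 genes, each taken as a box of mm9 that covers the gene and its flanks. *Nanog* was chr6:122647001-122675000, *Pou5f1* chr17:35632001-35658000, *Sox2* chr3:34539001-34562000 and *Cdx2* chr5:148102001-148129000. The boxes were set by position, and no measured value entered their limits. They were compared with 91726 tiles of 26 kb, close to the mean box length, that held a tag on chromosomes 1 to 19.

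The question was whether these genes carry H3K9me3 before *Setdb1* is lost, and whether tags change afterwards. The cells were *Setdb1 tm1c/tm2* JM8 ES cells (C57BL/6N), grown in serum with LIF and no feeders. The *tm2* allele is null from the start and CreERT2 is expressed from *Rosa26*, so all groups, *T* = 0 included, carry the *tm2* allele and the recombinase. 4′OHT at 0.8 μM for 48 h converts *tm1c* to the null *tm1d*. Groups were *T* = 0 (untreated), *T* = 2d (end of treatment), and *T* = 4d and *T* = 6d, counted from its start. The paper's allele names are used. The labels call the untreated genotype *tm1a/tm2* and the treated genotype *tm1c/tm2*. The Upstate-type antibody, a gift of T. Jenuwein, was used at all 4 times, and lots 58206 and 638466 of an Abcam antibody at *T* = 0 and *T* = 6d. This gave 8 libraries, with 1 library per antibody and time. The 3 antibody preparations are not biological replicates, and whether they were used on the same chromatin is not given in the sources used here. Within an antibody a test compares libraries rather than conditions. Neither *Setdb1* deletion nor the identity of the cells can be checked from tags of a histone mark, and control *tm1c/+* cells and input were not analysed here.

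Setdb1 places trimethyl groups on lysine 9 of histone H3, a mark of silenced chromatin and of repressed retroviral elements. In ES cells it is recruited to many of its targets by KRAB zinc finger proteins through the corepressor Trim28, and it also takes part with Oct4 in the repression of trophoblast genes. *Pou5f1* encodes Oct4 and *Sox2* its partner on DNA. Together they activate *Nanog*, and the 3 factors sustain pluripotency, so these genes are active in undifferentiated ES cells. *Cdx2* encodes the homeobox factor that specifies trophectoderm, and it is repressed in these cells.

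In the central 8 kb of *Nanog* and *Pou5f1* both Abcam lots had most tags upstream of the box centre, so the promoters are shown. RefSeq promoters of GRCm38.p6 were matched for all 4 genes. The 250 bases before each start are given 5′ to 3′ on the strand of the gene, with CpG dinucleotides (CG) in capitals. These coordinates belong to GRCm38.p6 and were not placed in the mm9 boxes, so no tags were assigned to the promoters.
*Nanog*, chr6:122707239-122707488, plus strand: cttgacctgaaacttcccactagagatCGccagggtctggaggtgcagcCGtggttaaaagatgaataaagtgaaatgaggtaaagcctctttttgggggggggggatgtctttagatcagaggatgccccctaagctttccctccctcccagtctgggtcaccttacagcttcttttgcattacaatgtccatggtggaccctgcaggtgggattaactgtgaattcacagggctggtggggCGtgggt
*Pou5f1*, chr17:35505782-35506031, plus strand: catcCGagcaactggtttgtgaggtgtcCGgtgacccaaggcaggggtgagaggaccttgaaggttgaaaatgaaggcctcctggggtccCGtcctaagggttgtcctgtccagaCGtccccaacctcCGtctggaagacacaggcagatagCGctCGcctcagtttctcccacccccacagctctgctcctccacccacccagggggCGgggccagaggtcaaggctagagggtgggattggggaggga
*Sox2*, chr3:34649745-34649994, plus strand: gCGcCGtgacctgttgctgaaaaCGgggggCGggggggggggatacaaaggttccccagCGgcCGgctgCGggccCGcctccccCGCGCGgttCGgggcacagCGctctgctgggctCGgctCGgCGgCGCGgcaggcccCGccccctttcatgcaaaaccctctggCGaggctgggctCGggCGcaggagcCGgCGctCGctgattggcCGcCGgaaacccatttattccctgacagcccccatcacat
*Cdx2*, chr5:147307250-147307499, minus strand: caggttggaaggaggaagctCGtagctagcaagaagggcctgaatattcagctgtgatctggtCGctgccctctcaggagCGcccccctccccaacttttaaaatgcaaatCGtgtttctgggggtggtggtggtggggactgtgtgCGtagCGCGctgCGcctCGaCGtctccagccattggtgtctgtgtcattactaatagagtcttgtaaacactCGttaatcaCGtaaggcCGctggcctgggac

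The *Sox2* promoter was the richest in CpG of these 4, with 27 CG, and 8.56% of 32851 RefSeq promoters held as many or more in the same window. *Cdx2* had 13 CG (31.5% of promoters), *Pou5f1* 8 (43%) and *Nanog* 3 (71%), against a median of 6. The letters ATGCAAA, most of the octamer that Oct4 binds, were searched on both strands. They began 99 bases before the start of *Sox2* and 147 before that of *Cdx2* on the strand of the gene, and were found on the opposite strand of *Nanog*, reaching 75 bases before the start. No match was found in the *Pou5f1* window, and 4.12% of all promoters held a match.

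H3K9me3 tags at *T* = 0 lay above the genome median over *Nanog*, *Pou5f1* and *Sox2* with every antibody, while *Cdx2* stood above it with both Abcam lots and near it with the Upstate-type antibody. The level is given as tags per kb of box divided by the median of the 26-kb tiles of the same library. Input was not analysed, so how much of a level is background recovery of the region was not tested. The mean level over the antibodies was 2.59 ± 1.30 for *Nanog*, 2.28 ± 0.91 for *Pou5f1*, 2.92 ± 1.10 for *Sox2* and 1.70 ± 0.54 for *Cdx2* (SD, n = 3). The spread between antibodies exceeded the differences between *Nanog*, *Pou5f1* and *Sox2*, and the single order among these 3 that held with every antibody was *Sox2* above *Pou5f1*, with intervals that overlapped for the Upstate-type antibody and lot 638466.

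*Nanog* held 213 (Upstate-type), 232 (lot 58206) and 194 (lot 638466) tags at *T* = 0. These were 3.96 (95% interval 3.44 to 4.52), 2.45 (2.14 to 2.78) and 1.38 (1.19 to 1.58) times the median. Intervals are exact Poisson intervals and cover counting error only. *Nanog* was the highest of the 4 genes with the Upstate-type antibody and the lowest with lot 638466. Widened by 10 kb on each side, the *Nanog* box held 468 (Upstate-type), 309 (lot 58206) and 317 (lot 638466) tags. The added flanks thus held more tags than the box with the Upstate-type antibody, and fewer with both Abcam lots. *Pou5f1* held 162, 192 and 187 tags, at 3.24 (2.76 to 3.78), 2.18 (1.88 to 2.51) and 1.43 (1.23 to 1.65) times the median. *Sox2* held 145, 296 and 196 tags, at 3.28 (2.77 to 3.86), 3.80 (3.38 to 4.26) and 1.69 (1.46 to 1.95). Only *Sox2* was higher with lot 58206 than with the Upstate-type antibody among these 3 pluripotency genes. *Cdx2* held 58, 200 and 244 tags, at 1.12 (0.848 to 1.44), 2.19 (1.90 to 2.51) and 1.79 (1.58 to 2.03). With the Upstate-type antibody the interval of *Cdx2* includes the median and does not overlap those of the pluripotency genes, whereas with lot 638466 *Cdx2* had the highest value of the 4.

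The same ratio had a different rank in each library, because the libraries differed in how far tags were concentrated. With the Upstate-type antibody 9.16% of all tiles reached 3 times the median at *T* = 0, against 0.0916% with lot 58206 and 0.0349% with lot 638466. *Nanog* thus exceeded 93.9% of tiles with the Upstate-type antibody and 99.6% with lot 58206, and *Sox2* 91.9% and 99.96%. *Pou5f1* exceeded 91.8% and 99.2%, and *Cdx2* 60.3% and 99.2%. With lot 638466 the shares were 85.8% for *Nanog*, 89.1% for *Pou5f1*, 98.5% for *Sox2* and 99.2% for *Cdx2*. The tallest stack of overlapping tags at *Nanog* was 21 with the Upstate-type antibody and 24 with lot 58206, where the median tile reached 4 and 5. With lot 638466 it was 11 against a median of 7, and at *Cdx2* it was 7, equal to that median.

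Along the boxes the tags were unevenly spread at *Nanog*, *Pou5f1* and *Sox2* with the Upstate-type antibody and lot 58206. The boxes contain 51 full bins of 2 kb, and a bin was counted as enriched at 3 or more times the median bin of its library. With the Upstate-type antibody 16 bins were enriched at *T* = 0, 5 of *Nanog*, 6 of *Pou5f1*, 5 of *Sox2* and 0 of *Cdx2*, where 9.42% of all bins on chromosomes 1 to 19 were. With lot 58206, 14 bins were, 2, 3, 6 and 3 in the same order of genes, against 2.26% of all bins. With lot 638466 there were 0, against 0.314%, and the highest of its bins reached 2.80 times the median. No bin was enriched with all 3 antibodies (0.19% of all bins were). At a lower limit of 2 times the median, 4 bins passed with every antibody (7.84% of the 51, against 1.16% of all bins), and they lay in *Nanog*, *Pou5f1* and *Sox2*.

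**Figure D1:**
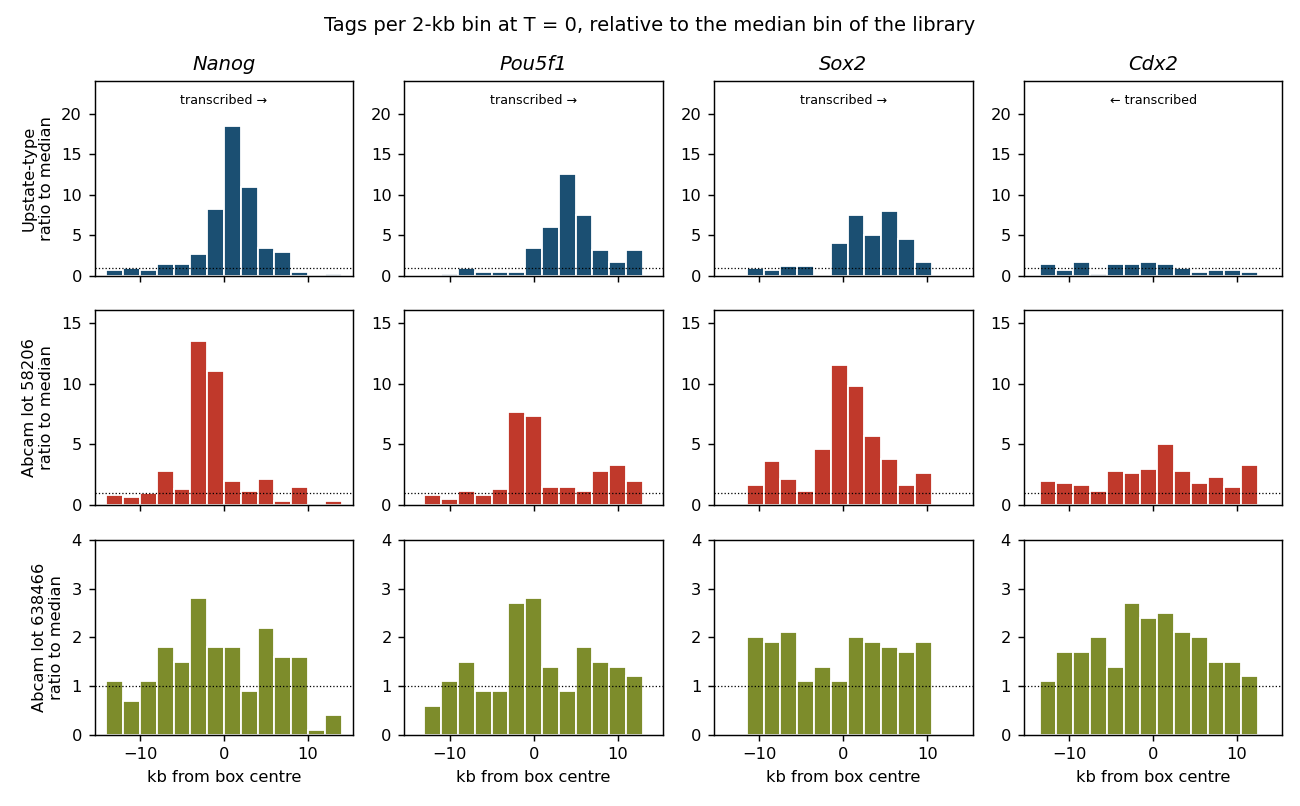
Tags per full 2-kb bin at *T* = 0 divided by the median bin of the library (dotted line at 1), against distance from the box centre in kb, for each gene (columns) and antibody (rows, each with its own vertical scale). The highest bin reaches 18.5 at *Nanog* with the Upstate-type antibody, 13.5 at *Nanog* with lot 58206 and 2.80 at *Pou5f1* and *Nanog* with lot 638466.

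The Upstate-type antibody had its highest bins of *Nanog* and *Pou5f1* in other places than the Abcam lots. At *Nanog* the bin with the highest mean level, which also holds the box centre (chr6:122661001-122663000), had 74 tags with the Upstate-type antibody, or 18.5 times the median, but 12 and 18 with lots 58206 and 638466. The highest bin of lot 58206 lay 4 kb upstream (chr6:122657001-122659000), with 81 tags. It was also the highest *Nanog* bin of lot 638466, with 28 tags, and there the Upstate-type antibody had 11. At *Pou5f1* the bin with the highest mean level (chr17:35648001-35650000) had 50 tags with the Upstate-type antibody and 9 with each Abcam lot. The bin at its centre (chr17:35644001-35646000) had 14, 44 and 28 tags, and so was high with both Abcam lots. At *Sox2* the bin with the highest mean level, which was the highest with no single antibody (chr3:34551001-34553000), had 30, 59 and 20 tags and its neighbour at the centre (chr3:34549001-34551000) had 16, 69 and 11. At *Cdx2* the bin with the highest mean level, which was the highest with lot 58206 alone (chr5:148116001-148118000) had 6, 30 and 25 tags, and the bin at the centre (chr5:148114001-148116000) 7, 18 and 24. The 13 full bins of *Cdx2* thus had a flat profile with the Upstate-type antibody, from 1 to 7 tags.

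Across the 51 bins the levels correlated at *T* = 0 with Pearson's r = 0.181 between the Upstate-type antibody and lot 58206, 0.0604 between the Upstate-type antibody and lot 638466, and 0.491 between the Abcam lots, against 0.272, 0.341 and 0.598 over all bins. Spearman's rho over the 51 bins was 0.371, 0.267 and 0.612. This is a description, since neighbouring bins share chromatin and base composition.

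The side of the box centre on which tags fell differed between antibodies, using the direction of transcription in GRCm38 (*Cdx2* on the minus strand, the others on the plus strand). Of the tags in the central 8 kb of *Nanog* at *T* = 0, 27.2% (exact binomial interval 20.5 to 34.7) lay on the 5′ side with the Upstate-type antibody and 88.6% (82.7 to 93.0) with lot 58206. With lot 638466 the share was 63.0% (50.9 to 74.0). At *Pou5f1* the shares were 7.35% (2.43 to 16.3), 72.1% (62.8 to 80.2) and 63.2% (51.3 to 73.9). At *Sox2* they were 7.69% (2.54 to 17.0), 43.8% (36.5 to 51.3) and 43.5% (31.0 to 56.7). At these pluripotency genes the Upstate-type antibody thus had the lowest 5′ share, and its interval overlapped neither Abcam lot. At *Cdx2* the shares were 43.5% (23.2 to 65.5, from 23 tags), 58.0% (46.5 to 68.9) and 47.9% (37.6 to 58.4), and all intervals overlapped. This split was chosen after the profiles were seen and was not tested. The gene starts themselves were not placed in mm9, so the box centre stands in for no particular base of the gene.

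**Figure D2:**
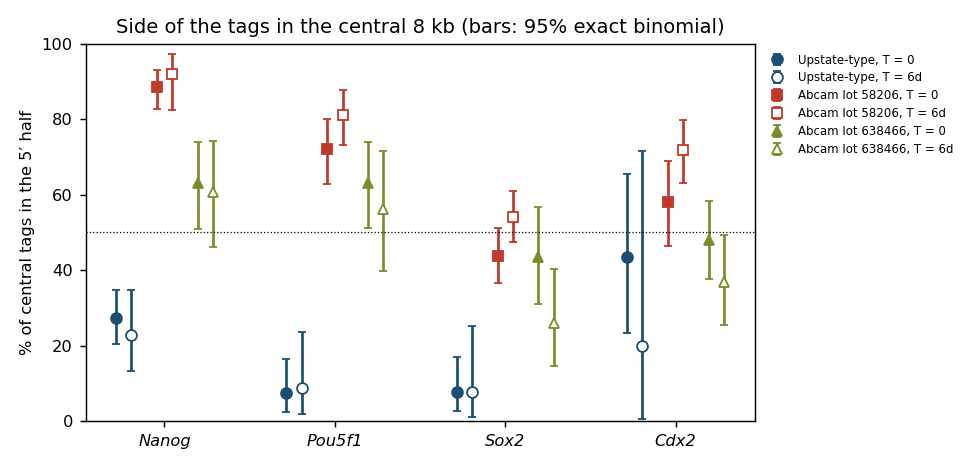
Share of tags in the central 8 kb that fell on the 5′ side of the box centre (%), by gene and antibody at *T* = 0 (filled) and *T* = 6d (open), with 95% exact binomial intervals and a dotted line at 50%. At *Nanog*, *Pou5f1* and *Sox2* the Upstate-type antibody lies lowest, between 7.35% and 27.2% at *T* = 0.

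After 4′OHT, *Nanog* was the gene whose box was called lower with every antibody, although its call with lot 638466 depended on the region counted. Each later library was set against *T* = 0 of the same antibody by Fisher's exact test (two-sided), with the tags of a box against all other tags, and a box was called changed at *P* below 0.01 and over 1.5-fold. *Nanog* passed in 4 of 5 comparisons with *T* = 0, *Pou5f1* and *Sox2* in 1 each and *Cdx2* in 0, which makes 6 of 20 called lower and 0 called higher. These tallies hold for the box. *Nanog* passed in 3 of 5 both in the central 8 kb and in the box widened by 10 kb, without lot 638466 in either, and *Cdx2* passed with the Upstate-type antibody at *T* = 6d in the central 8 kb and at *T* = 4d and *T* = 6d in the widened box. Of all tiles, 2.90% were called lower by *T* = 2d, 5.91% by *T* = 4d and then 9.16% by *T* = 6d for the Upstate-type antibody, and 5.60% and 3.25% for lots 58206 and 638466. The share called higher was 0.839%, 3.76%, 8.40%, 2.99% and 3.94% in the same order.

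**Figure D3:**
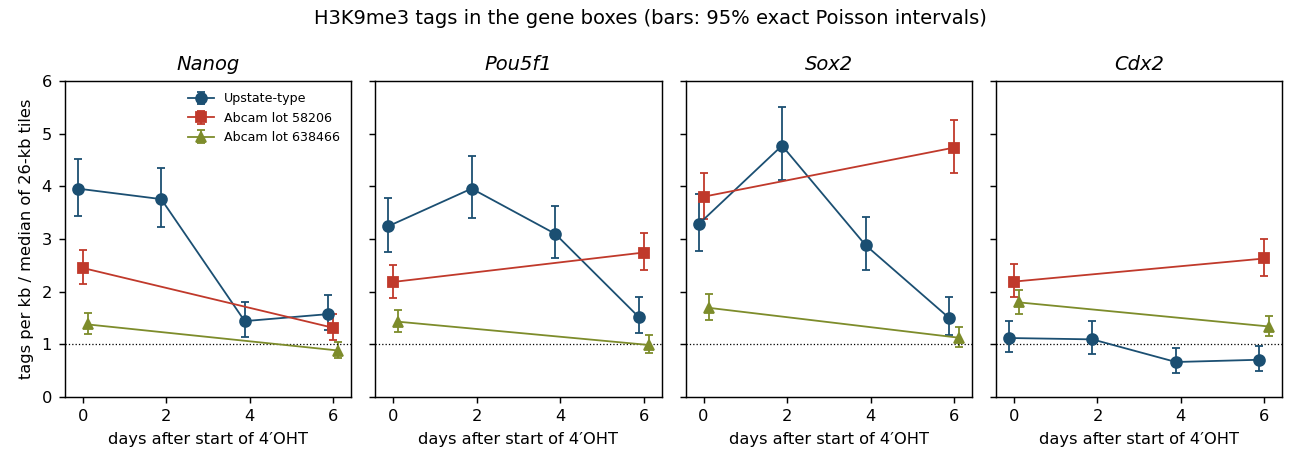
Tags per kb of each box divided by the median of 26-kb tiles of the same library, against days after the start of 4′OHT, with 95% exact Poisson intervals and a dotted line at the median. With the Upstate-type antibody *Nanog* drops between *T* = 2d and *T* = 4d, from 3.76 to 1.44, and *Pou5f1* between *T* = 4d and *T* = 6d, from 3.10 to 1.52.

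With the Upstate-type antibody the time course of *Nanog* read 213, 182, 79 and 88 tags at *T* = 0, 2d, 4d and 6d. The ratio to *T* = 0 was 0.854 (0.697 to 1.05; Fisher's exact test, *P* = 0.131) at *T* = 2d. It was 0.371 (0.283 to 0.482; exact *P* = 2.25e-15) at *T* = 4d, and 0.413 (0.319 to 0.532; exact *P* = 4.07e-13) by *T* = 6d. The fall took place between *T* = 2d and *T* = 4d, with a ratio of 0.434 (0.329 to 0.568), and tags at *T* = 6d stood at 1.11 times those at *T* = 4d (0.813 to 1.53). *Pou5f1* held 162, 178, 158 and 79 tags. Its ratio to *T* = 0 was 1.10 (0.883 to 1.37) at *T* = 2d, 0.975 (0.778 to 1.22) by *T* = 4d, then 0.488 (0.368 to 0.642; exact *P* = 9.64e-08) by *T* = 6d. *Pou5f1* fell from *T* = 4d to *T* = 6d by a ratio of 0.500 (0.377 to 0.659), the interval in which *Nanog* did not fall further.

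*Sox2* held 145, 190, 130 and 69 tags. At *T* = 2d it stood at 1.31 times *T* = 0 (1.05 to 1.64; exact *P* = 0.0161), below the 1.5-fold limit, and in its central 8 kb tags went from 65 to 109, 1.68 times as many (exact *P* = 0.00106). At *T* = 6d the ratio for the box was 0.476 (0.352 to 0.638; exact *P* = 2.22e-07). In the widened box the ratio at *T* = 2d was 1.12 (0.926 to 1.37; exact *P* = 0.245). The box of *Sox2* then changed by a factor of 0.684 (0.543 to 0.860) from *T* = 2d to *T* = 4d and of 0.531 (0.390 to 0.716) from *T* = 4d to *T* = 6d. *Cdx2* held 58, 51, 35 and 38 tags, with ratios to *T* = 0 of 0.879 (0.592 to 1.30), 0.603 (0.385 to 0.934; exact *P* = 0.0220) and 0.655 (0.423 to 1.0; exact *P* = 0.0519), none of which passed. In its central 8 kb there were 23, 13, 8 and 5 tags, with a ratio of 0.217 at *T* = 6d (exact *P* = 0.000912). With lot 58206 the central 8 kb of *Cdx2* went the other way, from 81 to 121 tags (1.49, exact *P* = 0.00593). It was called higher there when scaled to background tiles (1.53, exact *P* = 0.00305). With lot 638466 it went from 96 to 68 tags (0.708, exact *P* = 0.0347).

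With lot 58206, *Nanog* had 232 tags before treatment and 120 by *T* = 6d, which is 0.517 times as many (0.411 to 0.648; exact *P* = 2.43e-09). The other genes had ratios above 1 with this lot, and none passed. *Pou5f1* went from 192 to 233 (1.21, 0.998 to 1.48; exact *P* = 0.0522), *Sox2* from 296 to 356 (1.20, 1.03 to 1.41; exact *P* = 0.0208) and *Cdx2* from 200 to 232 (1.16, 0.956 to 1.41; exact *P* = 0.136). With lot 638466 all 4 genes had fewer tags at *T* = 6d, and *Nanog* alone passed both limits, from 194 to 125 (0.644, 0.510 to 0.811; exact *P* = 0.000133). *Pou5f1* went from 187 to 130 (0.695, 0.551 to 0.874; exact *P* = 0.00162), *Sox2* from 196 to 131 (0.668, 0.532 to 0.838; exact *P* = 0.000386) and *Cdx2* from 244 to 183 (0.750, 0.616 to 0.912; exact *P* = 0.00364). These 3 had a *P* below 0.01 but a change of less than 1.5-fold. The calls of this lot moved with the region and the scaling. *Nanog* was at 0.699 (exact *P* = 0.0589) in the central 8 kb and at 0.789 in the widened box, and passed in neither, *Pou5f1* passed in the central 8 kb (0.539, exact *P* = 0.00156), and *Sox2* passed in the box when scaled to background tiles (0.652, exact *P* = 0.000161).

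**Figure D4:**
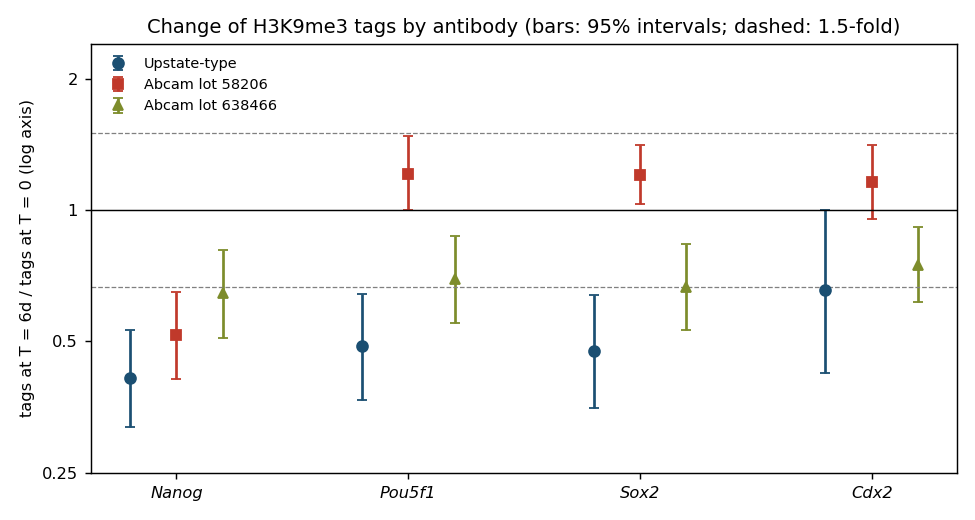
Ratio of tags at *T* = 6d to tags at *T* = 0 in each box by antibody, on a log axis, with 95% intervals, a solid line at 1 and dashed lines at a 1.5-fold change. All *Nanog* points lie below the lower dashed line (0.413, 0.517 and 0.644), and lot 58206 lies above 1 at *Pou5f1*, *Sox2* and *Cdx2*.

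The 3 antibodies were then compared together at *T* = 6d and *T* = 0 by limma with the antibody as a term, on log2(tags per 1000000 + 0.5). Of 88785 tiles and boxes tested, 3.48% were called lower at an adjusted *P* below 0.05 and over 1.5-fold. *Nanog* was lower by limma, with a log2 fold change of -0.93 ± 0.20 (SE, n = 3 antibodies, adjusted *P* = 0.0129), and lower with 3 of 3 antibodies (log2 changes of -1.24, -0.93 and -0.61). The call rests on the antibody term, since the model without it gave an adjusted *P* of 0.865 for the same fold change, and it was also lost in the central 8 kb (-1.02, limma, adjusted *P* = 0.0712). Over the alternatives tried the adjusted *P* ranged from 0.00739 to 0.865. *Pou5f1* had a log2 change of -0.41 ± 0.22 (limma, adjusted *P* = 0.263), *Sox2* of -0.44 ± 0.23 (adjusted *P* = 0.242) and *Cdx2* of -0.25 ± 0.19 (adjusted *P* = 0.434), each lower with 2 of 3 antibodies. Without lot 58206, *Pou5f1* (-0.75, limma, adjusted *P* = 0.0451) and *Sox2* (-0.80, adjusted *P* = 0.0309) passed, so that lot decides both. The SE and adjusted *P* values use a variance that limma moderates towards the trend over all tiles, not each gene's own spread alone. The SD of the 3 log2 changes was 0.32 for *Nanog*, 0.64 for *Pou5f1*, 0.66 for *Sox2* and 0.41 for *Cdx2*. That spread is between antibody preparations, not between biological replicates.

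With lot 58206 the change of *Nanog* differed from that of each other gene. The ratio of ratios was 0.426 against *Pou5f1* (Fisher's exact test on tags at both times, adjusted *P* = 8.60e-08), 0.430 against *Sox2* (adjusted *P* = 1.11e-08) and 0.446 against *Cdx2* (adjusted *P* = 2.35e-07). None of the other 15 of 18 pairs of genes passed with any antibody, among them *Nanog* and *Cdx2* with the Upstate-type antibody (0.631, adjusted *P* = 0.272). These pair tests were chosen after the values were seen.

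The *Nanog* bins called lower at *T* = 6d included, for the Upstate-type antibody and lot 58206, the bins where each had most of its tags. Bins with few tags could hardly pass, so the calls do not show that the fall was confined to these bins. With the Upstate-type antibody a *Nanog* bin that went from 6 to 0 tags at *T* = 2d was not called (Fisher's exact test, *P* = 0.0312). Of the 51 bins, 0 were called at *T* = 2d (0.324% of all bins were lower and 0.392% higher), 3 were lower at *T* = 4d (0.922% of all bins, with 0.461% higher) and 8 were lower at *T* = 6d (1.32%, with 0.727% higher) with the Upstate-type antibody. The 8 were 4 bins of *Nanog*, 3 of *Pou5f1* and 1 of *Sox2*. With lot 58206, 3 bins were lower, all at *Nanog* (0.888% of all bins), and 2 were higher, 1 at *Sox2* and 1 at *Cdx2* (0.959%). With lot 638466, 0 were called (0.918% of all bins were lower and 0.486% higher).

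Only 3 bins were called in more than 1 comparison, each of them lower. The Upstate-type comparisons share the *T* = 0 library, so repeated calls with this antibody are not independent, and the *Sox2* bin was called with it alone. The share of all bins called more than 1 time is not given here, so no recurrence beyond that share is claimed. The central *Nanog* bin had 74, 58, 26 and 31 tags with the Upstate-type antibody over the time course (Fisher's exact test, *P* = 3.28e-05 at *T* = 6d), 12 and 1 with lot 58206 and 18 and 14 with lot 638466. The *Nanog* bin before it (chr6:122659001-122661000) had 33, 34, 8 and 9 tags, then 66 and 23, and 18 and 15. It had lost most of its tags at *T* = 4d with the Upstate-type antibody and at *T* = 6d with lot 58206, and little with lot 638466. The *Sox2* bin chr3:34555001-34557000 had 32, 25, 13 and 13 tags with the Upstate-type antibody, 23 and 26 with lot 58206 and 18 and 8 with lot 638466.

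**Figure D5:**
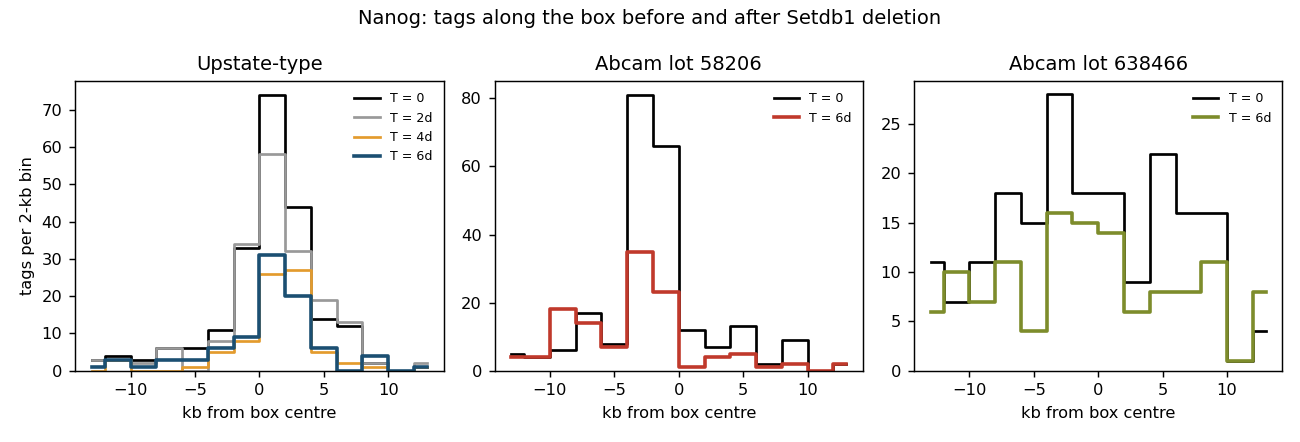
Tags per 2-kb bin along the *Nanog* box, against distance from its centre in kb, for each antibody (each panel has its own vertical scale) and time. The Upstate-type peak at the centre goes from 74 to 31 tags and the lot 58206 peak on its upstream side from 81 to 35 between *T* = 0 and *T* = 6d.

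The bins with the highest mean level and the central bins of the other genes were as follows, in the same order of libraries. At *Pou5f1* the bin with the highest mean level had 50, 58, 46 and 24 tags with the Upstate-type antibody, 9 and 4 with lot 58206, and 9 at both times with lot 638466. The central *Pou5f1* bin had 14, 24, 27 and 4 tags, then 44 and 51, and 28 and 14. The *Sox2* bin with the highest mean level had 30, 40, 21 and 13 tags, then 59 and 70, and 20 and 13, and the central *Sox2* bin 16, 32, 18 and 5, then 69 and 77, and 11 and 12. The *Cdx2* bin with the highest mean level had 6, 2, 3 and 1 tags, then 30 and 46, and 25 and 19, and the central *Cdx2* bin 7, 6, 2 and 3, then 18 and 21, and 24 and 19. At *Cdx2* the bin called higher with lot 58206 (chr5:148118001-148120000) rose from 17 to 42 tags, while it had 4 and 0 with the Upstate-type antibody and 21 and 9 with lot 638466.

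The level at *T* = 6d, averaged over the antibodies, was 1.25 ± 0.35 times the median for *Nanog*, 1.75 ± 0.90 for *Pou5f1*, 2.45 ± 1.99 for *Sox2* and 1.56 ± 0.98 for *Cdx2* (SD, n = 3). With the Upstate-type antibody *Nanog* moved from 3.96 to 1.57. Lot 58206 gave 2.45 before and 1.31 after, and lot 638466 gave 1.38 and 0.879. At this time *Sox2* was still the highest with lot 58206, at 4.74 times the median, above 99.97% of tiles, and stood at 1.5 and 1.12 with the other antibodies.

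Parts of the boxes gave few or no tags. The *Nanog* box has a stretch of 1113 bp without a tag in any of the 8 libraries, and 2 of its 56 pieces of 500 bp were empty, against 0 in the other boxes and 3.96% over all tiles.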

How the data were processed

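H3K9me3 ChIP-seq was analysed in *Setdb1* ES cells at 4 time points. The authors kept uniquely mapped tags (0 or 1 mismatch), equalised the libraries of an antibody and deposited 300 bp intervals in mm9 (the build in the submitters' processing notes), with no value per region. The aligner is not given in the sources used here. Each file holds 6887819 (Upstate-type), 8503927 (lot 58206) or 12194174 (lot 638466) tags, with each start position on chromosomes 1 to 19 present at most 1 time.

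Tags were counted by midpoint with Python 3.11.15, numpy, pandas and scipy. Boxes, 26-kb tiles and 2-kb bins were tested by Fisher's exact test, and the 3 antibodies by limma 3.58.1 (R 4.3.3) over tiles and boxes averaging at least 0.5 times the median, with Benjamini-Hochberg adjustment. The antibody pairs the libraries: deviations from the time point means correlated with r = 0.819, 0.691 and 0.658 (Upstate-type, lots 58206 and 638466). On simulated data for the Upstate-type *T* = 6d comparison (91726 tiles, 200 lowered 3-fold) the Fisher test recovered 97.5% and called 0.601% of the others. Its simulated tags varied by Poisson counting alone, without differences between libraries, and the lowered tiles were at or above the median. In the data 9.16% of tiles were called lower and 8.40% higher, so 0.601% is no error rate for these libraries. For the limma comparison (88586 tiles, 200 changed 3-fold) 200 were recovered. There the Poisson tags had the same fold change in all 3 antibodies, so the recovery does not cover changes that differ between antibodies.

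The genes and tests were chosen with earlier results of these data known. Named were the 4 genes and, per box, the bin with the highest mean level at *T* = 0, the central bin, and bins called in 2 or more comparisons. Other bins named were chosen after their values were seen. Other genes of the pathway were not analysed here, since no mm9 annotation was used. Alternatives were other regions, bins, limits, scalings, pseudocounts and filters, a model that left out the antibody term, and fits with each antibody removed. The number of unmatched columns set aside was 0.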

Additional observations from a re-analysis of the deposited data

Results flagged for a closer look

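The change from *T* = 0 to *T* = 6d differed between antibodies in 7 of 12 pairs tested in the boxes (Fisher's exact test on tags at both times, Benjamini-Hochberg adjusted over the 12, chosen after the values were seen). Lot 58206 was part of 6 of them. For *Pou5f1* the ratio with the Upstate-type antibody was 0.402 times that with lot 58206 (adjusted *P* = 3.20e-07), and that with lot 58206 was 1.75 times that with lot 638466 (adjusted *P* = 0.000621). For *Sox2* the same comparisons gave 0.396 (adjusted *P* = 1.42e-07) and 1.80 (adjusted *P* = 7.67e-05), and for *Cdx2* 0.565 (adjusted *P* = 0.0226) and 1.55 (adjusted *P* = 0.00402). At *Nanog* the Upstate-type ratio was 0.641 times that of lot 638466 (adjusted *P* = 0.0221), with tags lower for both. The part of antibody and of culture or chromatin preparation in these differences cannot be told apart with 1 library per antibody and time.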

How the results depend on the processing

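Of 88 alternative values, 77 were counted as the same and 0 as reversed. Only limma log2 changes could count as reversed, and the same meant an unchanged direction and side of the threshold there. Levels, bin shares and counts of calls could only stay the same or move. A level counted as the same within the SD between antibodies. For *Nanog* this held for 1.91 without the Upstate-type antibody, against 2.59 ± 1.30 (SD, n = 3). A total of 7 comparisons called lower by Fisher's exact test counted as the same as 6, although the comparisons called differed. In the central 8 kb the *T* = 0 level was 6.16 for *Nanog*, 3.47 for *Pou5f1*, 4.20 for *Sox2* and 2.29 for *Cdx2*. Scaling to 500-bp pieces with a tag, added after seeing the data, gave 2.60, 2.21, 2.83 and 1.65. Over the 3 libraries at *T* = 0, 19.6% of bins were enriched, against 36.6% at 2 times and 11.1% at 5 times the median (all bins 4.00%, 11.1% and 1.77%). In the central 8 kb the Fisher test called 7 comparisons lower and 1 higher (*Sox2* at *T* = 2d, Upstate-type). *Nanog* with lot 638466 was no longer called there, and *Cdx2* (Upstate-type, *T* = 6d) and *Pou5f1* (lot 638466) were. The box widened by 10 kb also gave 7, without *Nanog* with lot 638466 and with *Cdx2* at *T* = 4d and *T* = 6d (Upstate-type). Background scaling gave 7, with *Sox2* (lot 638466) added. With no fold limit, at an adjusted *P* below 0.05, 9 were lower. The share of all tiles called under these alternatives of the Fisher test is not given here. For *Nanog* the limma log2 change was -1.02 in the central 8 kb (adjusted *P* = 0.0712) and -0.93 with no replicate block, that is without the antibody term (adjusted *P* = 0.865). That model called 0 tiles lower and 0 higher (2453 and 2781 at unadjusted *P* below 0.05), against 3089 and 1498. Among the other settings on 26-kb tiles these counts ranged from 1735 to 4934 lower and from 373 to 2945 higher. Leaving out each antibody gave -1.09 to -0.77 for *Nanog*, -0.75 to -0.12 for *Pou5f1*, -0.80 to -0.15 for *Sox2* and -0.49 to -0.10 for *Cdx2*. *Pou5f1* and *Sox2* passed without lot 58206. The causes were not tested. Depth limits the bins: the median 2-kb bin at *T* = 0 held 4 (Upstate-type), 6 (lot 58206) and 10 (lot 638466) tags.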
